A study of Homo sapiens with 4 samples.

Results

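The genes described here are 9 genes of pericellular proteolysis, the cutting of matrix and of surface proteins around a cell. They are the matrix metalloproteinases *MMP1*, *MMP2*, *MMP3* and *MMP14*, their tissue inhibitors *TIMP1*, *TIMP2* and *TIMP3*, and the urokinase *PLAU* with its receptor *PLAUR*. They were taken by name from the 46660 gene identifiers obtained by summing the deposited linear RNAs, and all 9 were found. RNA-seq libraries came from U87MG and U251MG, which are established human glioblastoma cell lines, and the U87MG stock of the study was a version of uncertain origin. In each cell line, 1 library was of cells infected with a lentivirus carrying an empty vector (pGreen, genotype CTL, titled shControl) and 1 was of cells infected with a lentivirus carrying shRNA against *FLI1* (shFLI1), an ETS family transcription factor. All 4 cultures were selected with puromycin and collected as mixed stable cells rather than as clones. The study lists 2 shRNAs against *FLI1*, and which of them each shFLI1 library carried is not given in the sources used here.

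Matrix metalloproteinases are zinc enzymes that are made as inactive precursors and cut collagens, laminins, fibronectin and surface proteins. MMP14 sits in the plasma membrane and, together with bound TIMP2, activates the precursor of the gelatinase MMP2, while TIMP2 in excess blocks it. Urokinase bound to its receptor turns plasminogen into plasmin, which degrades fibrin and activates metalloproteinase precursors, and all of these genes are known in glioblastoma for invasion into brain tissue.

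The gene counts summed to between 12229780 and 28891055 per library, and the shFLI1 library held 1.74 times the counts of its control in U87MG and 1.6 times in U251MG. *FLI1* was at 107 counts in the U87MG control and 52 in its shFLI1 library, and at 216 and 111 in U251MG. Scaled to library size, U87MG shFLI1 cells kept 25% and U251MG shFLI1 cells 30.6% of the *FLI1* level of their controls. The glial and mesenchymal markers *VIM*, *CD44*, *NES* and *SOX2* were well counted in the 4 libraries, whereas *OLIG2*, *AQP4* and *S100B* did not exceed 11 counts in any. *GFAP*, the astrocytic filament gene, was at 7264 and 35305 counts in U87MG control and shFLI1 and at 364 and 2808 in U251MG, higher after knockdown in both lines, and *CHI3L1* had at most 15 counts in U87MG and 0 in U251MG. Of other cells, some markers were near 0, with at most 5 counts of *PTPRC* (leukocytes) and 3 of *PECAM1* (endothelium) in a library. *RBFOX3* (neurons) had at most 2 and *DCN* (fibroblasts) at most 1. Other markers of the same lists were counted. *CDH5* (endothelium) had 51 and 50 counts in U87MG control and shFLI1, and 6 and 10 in U251MG. Per library, *SYT1* (neurons) had 207 to 664 counts, *PDGFRB* (pericytes) 23 to 198 and *COL1A1* (fibroblasts) 104 to 1741. The summed level of the 5 macrophage markers measured went from 5.5 to 1.44 CPM (read counts relative to library size, scaled with TMM factors) in U87MG and from 10.6 to 2.97 CPM in U251MG after knockdown, through *CD68*, a lysosomal gene that fell in both lines, and that of the 4 fibroblast and pericyte markers from 37.6 to 34.2 and from 91.2 to 70 CPM, with *ACTA2*, a smooth muscle actin, lower in both. The endothelial sum went from 16 to 8.05 CPM in U87MG and from 7.68 to 14.7 CPM in U251MG, mostly through *KDR*, and the neuron sum from 304 to 214 and from 372 to 399 CPM, mostly through the tubulin gene *TUBB3*. *COL1A1* of the fibroblast list rose in U87MG, from 9.08 to 21.4 CPM, and went from 60.6 to 58.1 CPM in U251MG. The part of these markers in the results was not tested. Each arm of a line is 1 library, so no replicate checks a difference within a line, and the 95% intervals cover counting error only. In bulk RNA, fewer cells expressing a gene and less RNA per cell cannot be told apart.

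The start regions of 4 genes that the results turn on are shown because *MMP14* and *PLAUR* were both lower after knockdown in the 2 lines while *PLAU* and *TIMP3* went opposite ways. By RefSeq in GRCh38.p14, the protease genes lie at chr11:102789919-102798160 (*MMP1*), chr16:55478830-55506691 (*MMP2*), chr11:102835801-102843609 (*MMP3*), chr14:22836585-22847758 (*MMP14*) and chr10:73908832-73917494 (*PLAU*), the receptor gene at chr19:43646095-43670169 (*PLAUR*), and the inhibitor genes at chrX:47582436-47586789 (*TIMP1*), chr17:78852977-78925387 (*TIMP2*) and chr22:32801705-32863041 (*TIMP3*). Each sequence is the 250 bases before the RefSeq start in GRCh38.p14, 5′ to 3′ on the strand of the gene. They lie at chr14:22836335-22836584 on the plus strand (*MMP14*), chr19:43670170-43670419 on the minus strand (*PLAUR*), chr10:73910882-73911131 on the plus strand (*PLAU*) and chr22:32801455-32801704 on the plus strand (*TIMP3*). Capitals mark GGAA, the core bound by ETS factors, on either strand (as TTCC on the other), and TGANTCA, the AP-1 element.
MMP14: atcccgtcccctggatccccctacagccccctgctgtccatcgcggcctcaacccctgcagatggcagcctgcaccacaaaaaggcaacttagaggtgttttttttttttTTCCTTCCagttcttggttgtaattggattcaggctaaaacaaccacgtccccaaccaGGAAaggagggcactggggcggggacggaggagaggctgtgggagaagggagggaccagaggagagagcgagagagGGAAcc
PLAUR: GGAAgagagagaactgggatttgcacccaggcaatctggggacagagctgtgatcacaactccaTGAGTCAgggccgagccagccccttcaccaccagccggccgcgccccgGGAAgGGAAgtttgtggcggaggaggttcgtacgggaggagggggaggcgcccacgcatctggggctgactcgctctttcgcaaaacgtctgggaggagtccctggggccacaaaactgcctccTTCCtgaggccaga
PLAU: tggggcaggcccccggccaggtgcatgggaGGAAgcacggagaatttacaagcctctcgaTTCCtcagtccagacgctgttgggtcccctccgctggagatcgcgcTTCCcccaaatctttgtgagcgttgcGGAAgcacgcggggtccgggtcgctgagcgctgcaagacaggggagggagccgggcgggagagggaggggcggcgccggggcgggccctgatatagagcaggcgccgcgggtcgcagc
TIMP3: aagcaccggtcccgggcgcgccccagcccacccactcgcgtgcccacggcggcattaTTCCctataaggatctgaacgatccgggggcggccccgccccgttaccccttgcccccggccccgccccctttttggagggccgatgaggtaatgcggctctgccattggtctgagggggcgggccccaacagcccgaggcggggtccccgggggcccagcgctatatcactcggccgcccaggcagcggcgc

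The *MMP14*, *PLAUR* and *PLAU* windows each held 4 GGAA matches, and the *TIMP3* window held 1. A second *PLAU* window in the promoter table, chr10:73910360-73910609, held 3, with 46.8% G or C and no GC box, and the one shown was taken because it precedes the start of the canonical Ensembl transcript (73911132). The window of *TIMP1*, the fifth gene matched in the promoter table, held 4. Over 35116 windows of the same length, 92.7% held at least 1 GGAA and the median was 3, so that a count of 4 is 1 above that of the median promoter. The TGANTCA element occurred in 6.57% of all windows and, among the 4 shown, in that of *PLAUR*, where it spans bases 180 to 186 before the start. The longer ETS sequence CCGGAAGT, present in 3.42% of windows, was in none of the 4 windows shown. The *TIMP3* window was 72.4% G or C with 26 CG pairs and 5 GC boxes (GGGCGG, either strand), against a median of 58% and 11 CG pairs over all windows. These matches describe letters only and say nothing of binding.

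Levels of different genes were compared per length, by the authors' FPKM of the leading RNA of each gene. *PLAU* was the highest, with a mean of 182 FPKM over the 4 libraries (136 to 238), followed by *TIMP1* at 127 (119 to 143) and *TIMP2* at 103 (49.2 to 148). *MMP2* at 46.9 FPKM (36 to 70.2), *PLAUR* at 31.7 (22.5 to 44.7) and *MMP14* at 26.8 (15.4 to 36.4) formed a lower tier. In this order each of these 6 genes overlapped its neighbour in range over the libraries. Within every library, though, *PLAU*, *TIMP1* and *TIMP2* were each above *MMP2*, *PLAUR* and *MMP14*. *PLAU* was also above *TIMP1*, and *MMP2* above *PLAUR* and *MMP14*, in each. The order changed in U251MG shFLI1, where *TIMP2* (148 FPKM) passed *PLAU* (136) and *TIMP1* (122), and *MMP14* (29.8) passed *PLAUR* (27.4). *TIMP3* at 0.372 FPKM (0.01 to 0.9), *MMP3* at 0.36 (0 to 0.72) and *MMP1* at 0.02 (0 to 0.05) lay far below all of them. The leading RNA held only 65.3% to 75.1% of the *PLAUR* counts, so its FPKM understates that gene. The order of *PLAUR* against *MMP2* and *MMP14* therefore holds for the leading RNAs only.

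**Figure D1:**
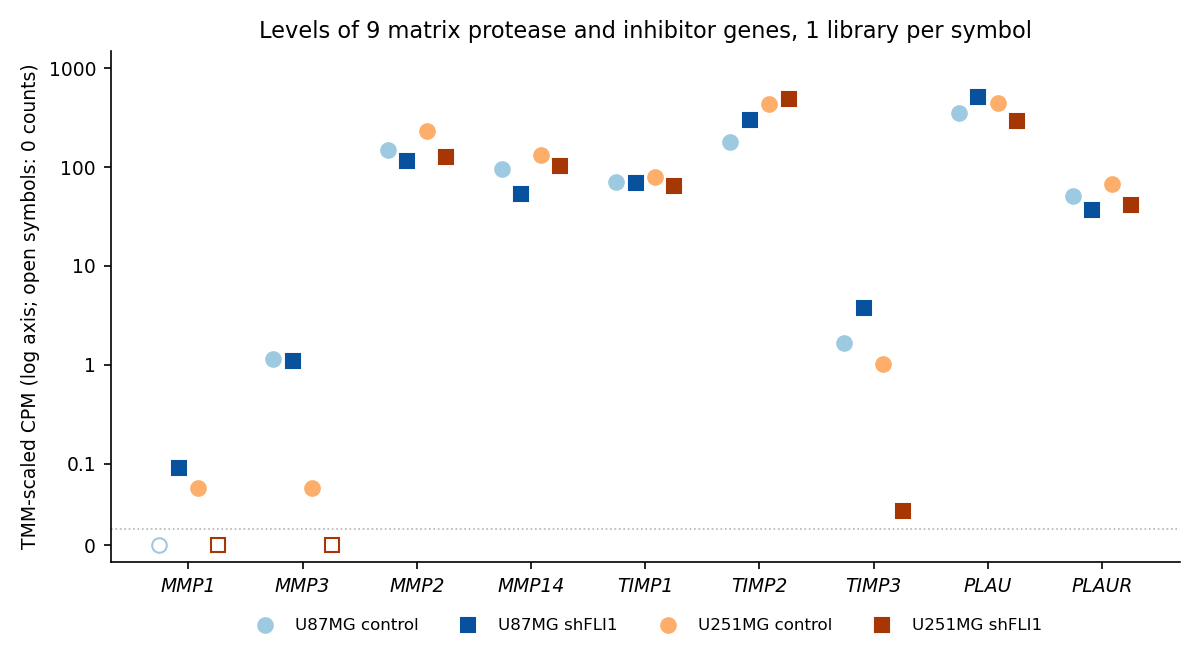
TMM-scaled CPM (read counts relative to library size, log axis) of the 9 genes, with 1 symbol per library and open symbols at the bottom for 0 counts. *PLAU*, *TIMP2*, *MMP2*, *MMP14*, *TIMP1* and *PLAUR* lie between 37 and 505 CPM in every library, while *MMP1*, *MMP3* and *TIMP3* lie at or below 3.73 CPM, and *TIMP3* in U251MG shFLI1 stands apart from its other 3 libraries.

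The first question was how the metalloproteinases changed when *FLI1* was knocked down. *MMP2* and *MMP14* were lower in the shFLI1 library of both lines, in neither by the 2-fold that the study used as its threshold. *MMP2*, the gelatinase that cuts type IV collagen of basement membranes, was at 150 CPM in U87MG control and 114 in U87MG shFLI1, and at 233 and 126 CPM in U251MG. The shFLI1 level was thus 75.7% of control in U87MG (log2 change -0.40, 95% counting interval -0.49 to -0.31) and 53.8% in U251MG (-0.89, -0.96 to -0.83). The U251MG interval reaches close to the 2-fold line without crossing it.

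*MMP14*, the membrane-anchored collagenase and activator of MMP2, showed the larger shift in the other line. It was at 95.9 CPM in U87MG control and 53.1 in U87MG shFLI1, and at 132 and 103 CPM in U251MG. This was 55.3% of control in U87MG (log2 change -0.85, -0.97 to -0.73) and 78% in U251MG (-0.36, -0.44 to -0.28). Both shFLI1 libraries lay below the control of their own line, but U251MG shFLI1 remained above the U87MG control, so the control and shFLI1 values overlap across the lines. The change of *MMP2* on the log2 scale was 0.49 more negative in U251MG than in U87MG (U251MG minus U87MG -0.49, -0.60 to -0.38), and that of *MMP14* was less negative there (0.50, 0.35 to 0.64). These differences between the lines exceed counting error but rest on 1 library per arm and were not tested.

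The interstitial collagenase *MMP1* and the stromelysin *MMP3*, neighbours on the long arm of chromosome 11, were hardly detected. *MMP1* had 0 counts in U87MG control, 2 in U87MG shFLI1, 1 in U251MG control and 0 in U251MG shFLI1. All 4 values are within the 3 counts that a count of 0 allows, which is between 0.1 and 0.262 CPM by library, and no fold was computed. *MMP3* had 13 and 24 counts in U87MG control and shFLI1 (1.14 and 1.08 CPM), and 1 and 0 counts in U251MG. In U87MG its log2 change was -0.07 (0.08 with scaling by total counts) with an interval from -1.10 to 1.02, so that a change of 2-fold either way was not detectable at this depth.

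Among the inhibitors, *TIMP3* was the only member called after knockdown, and it was called in opposite directions in the 2 lines. *TIMP3*, the inhibitor that binds to the matrix and also blocks ADAM proteases, had 19 counts in U87MG control, 83 in U87MG shFLI1, 18 in U251MG control and 1 in U251MG shFLI1. In CPM these were 1.66, 3.73, 1.01 and 0.0334. The control libraries were alike, and the shFLI1 libraries lay on either side of them.

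*TIMP3* was 2.25-fold higher in U87MG shFLI1 (log2 change 1.12 with a prior count of 2, interval of the ratio 0.44 to 1.97). In U251MG the shFLI1 level was 3.31% of control (log2 ratio -4.92, -10.30 to -2.26), a value that rests on 1 count in the deepest library. On the minus strand, *SYN3* overlaps *TIMP3*, and its counts were 25 and 65 in U87MG and 42 and 78 in U251MG. Whether the counting used strand is not given in the sources used here, and without strand the reads of overlapping genes cannot be told apart. *SYN3* was thus counted in all 4 libraries, also in the one where *TIMP3* was at 1 count.

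*TIMP2*, a secreted inhibitor that also takes part in MMP2 activation, was higher in the shFLI1 library of both lines and below 2-fold. It was at 180 CPM in U87MG control and 297 in U87MG shFLI1, and at 434 and 487 CPM in U251MG, which is 166% and 112% of control. The log2 changes were 0.73 (0.66 to 0.80) in U87MG and 0.17 (0.13 to 0.21) in U251MG. *TIMP1*, a secreted inhibitor of most soluble metalloproteinases, had the smallest change of the abundant members in U87MG. Its levels were 70.4 and 69.1 CPM in U87MG control and shFLI1 and 78.7 and 65 CPM in U251MG. The log2 change of *TIMP1* was -0.03 (-0.15 to 0.10) in U87MG, within counting error and 0.13 with scaling by total counts, and -0.28 (-0.38 to -0.18) in U251MG. *SYN1*, which overlaps *TIMP1* on the minus strand, did not exceed 10 counts in any library.

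The urokinase gene *PLAU* was above its control in U87MG shFLI1 and below it in U251MG shFLI1. It was at 351 CPM in U87MG control, 505 in U87MG shFLI1, 447 in U251MG control and 293 in U251MG shFLI1. The highest and the lowest of the 4 libraries were therefore the 2 shFLI1 libraries. The log2 change was 0.52 (0.47 to 0.58) in U87MG and -0.61 (-0.65 to -0.56) in U251MG, both under 2-fold.

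Its receptor *PLAUR*, a surface protein held by a lipid anchor, was lower in the shFLI1 library of both lines. *PLAUR* was at 51.4 and 37 CPM in U87MG control and shFLI1, and at 66.8 and 41.4 CPM in U251MG. Both shFLI1 libraries lay below both controls. The shFLI1 level was 71.8% of control in U87MG (log2 change -0.48, -0.63 to -0.32) and 61.9% in U251MG (-0.69, -0.81 to -0.58). This held for 3 of the 8 members of the edgeR fit, *PLAUR*, *MMP2* and, narrowly, *TIMP1*, beside 14.2% of all 16649 genes of that fit.

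**Figure D2:**
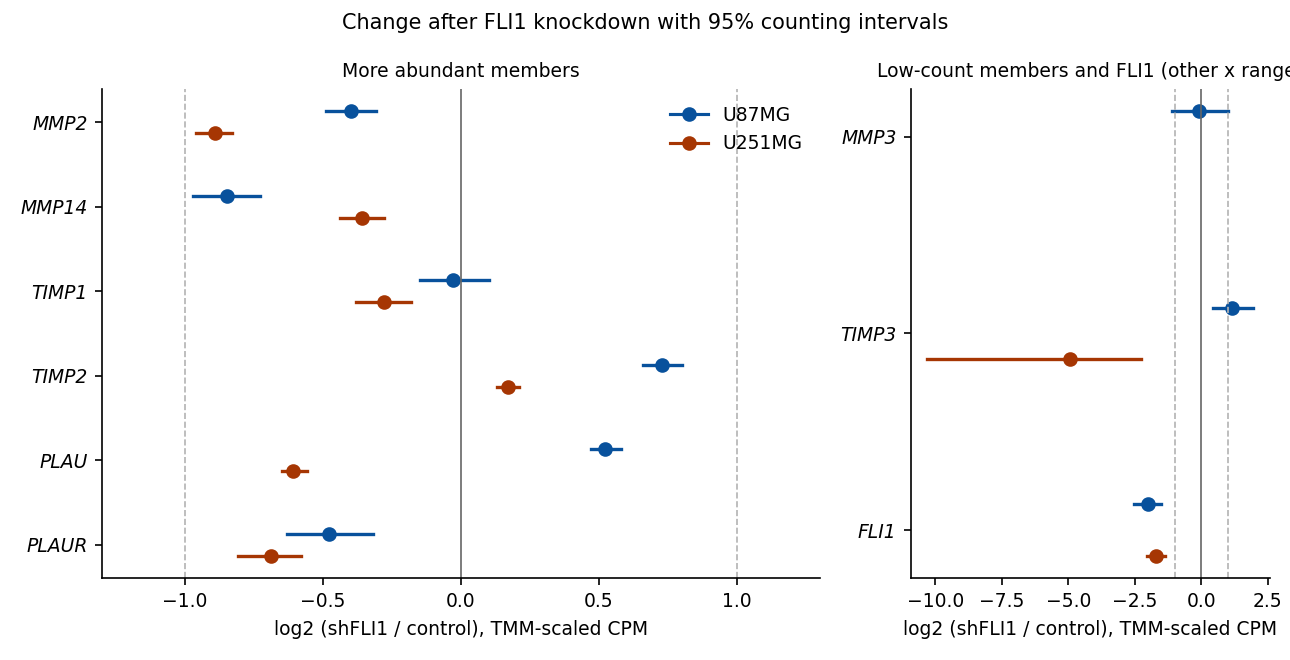
Log2 ratio of shFLI1 to control TMM-scaled CPM in U87MG (blue) and U251MG (brown), with 95% Clopper-Pearson intervals of the read counts as lines, 1 library per arm, and dashed lines at 2-fold. Among the abundant members *MMP2*, *MMP14* and *PLAUR* lie left of 0 in both lines, *TIMP2* lies right of 0 in both, *PLAU* lies at 0.52 in U87MG and -0.61 in U251MG, and the right panel, on a wider axis, shows *TIMP3* past 2-fold on opposite sides.

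A member was called within a line when it had at least 10 counts in 1 library, differed by more than 2-fold and had an interval excluding no change. In U87MG 1 of 8 members that reached 10 counts was called (*TIMP3*, higher), which is 12.5% against 11.4% of all 17355 genes. In U251MG 1 of 7 was called (*TIMP3*, lower), 14.3% against 8.17% of all 18222 genes. Both shares are near the background. The median log2 change of the members was -0.05 in U87MG and -0.61 in U251MG, beside 0.06 and 0.04 over all genes. In U251MG 6 of the 7 members had negative log2 changes. Either call was lost when at least 100 counts were required, since *TIMP3* then dropped out.

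With the cell lines taken as the replicates of the knockdown, edgeR's quasi-likelihood test with the line as a block had 1 residual degree of freedom. No member passed an adjusted p of 0.05 (0 of 8 tested), against 3.06% of all 16649 genes, of which 153 were higher and 356 lower (166 and 199 with scaling by total counts). At an unadjusted p below 0.05 there were 4 of the 8 members, *MMP2*, *MMP14* and *PLAUR*, with negative coefficients, and *TIMP2*, with a positive one, which is 50% beside 16.5% of all genes. Their adjusted p-values from edgeR, each over all genes tested, were 0.0712 for *MMP2* (log2 change -0.66), 0.0901 for *MMP14* (-0.62), 0.0665 for *PLAUR* (-0.60) and 0.287 for *TIMP2* (0.43). Each of these 4 had the same sign in 2 of 2 lines. That is no added evidence, since the test that picked them favours genes moving alike in both lines. DESeq2 placed *MMP2* under the threshold with an adjusted p of 0.0363, and left *MMP14* at 0.101, *PLAUR* at 0.172 and *TIMP2* at 0.459. The shared coefficients of *PLAU* (-0.06, adjusted p = 0.941 in edgeR, 0.08 with scaling by total counts) and *TIMP3* (-0.55, adjusted p = 0.837) average changes of opposite sign.

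The next comparison asked how the lines differed before knockdown. In the control libraries U251MG had more of most members than U87MG, and by over 2-fold only of *TIMP2* among the 8 tested. The *TIMP2* level of 434 CPM in U251MG was 2.42-fold that of 180 CPM in U87MG (log2 difference 1.27, 1.20 to 1.34). *MMP3* was called lower in U251MG, at 1 count against 13 (4.94% of the U87MG level, log2 ratio -4.34, -9.75 to -1.60). *MMP2* was higher by 0.63 on the log2 scale (0.55 to 0.72), *MMP14* by 0.46 (0.35 to 0.56), *PLAUR* by 0.38 (0.23 to 0.52) and *PLAU* by 0.35 (0.29 to 0.40). *TIMP1* differed by 0.16 (0.04 to 0.29), and the *TIMP3* difference of -0.67 had an interval that included no change (-1.73 to 0.29) and was 0.22 on the log2(FPKM + 1) scale. Thus 2 of 8 members were called between the controls, 25% against 15.1% of all 16391 genes.

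Among the shFLI1 libraries the same differences were smaller for *MMP2* (0.14, 0.07 to 0.22) and *TIMP2* (0.71, 0.67 to 0.75), larger for *MMP14* (0.95, 0.86 to 1.05), and of the opposite sign for *PLAU* (-0.78, -0.82 to -0.74). *TIMP3* there had 1 count in U251MG against 83 in U87MG (log2 ratio -6.80, -12.12 to -4.29). *MMP3* had 0 counts in U251MG against 24, and with 3 counts set as the floor of that library, and the 24 taken as they are, it was at least 10.8-fold lower. The counting interval of its log2 ratio ended at -3.02. The *MMP3* gap was therefore seen in both pairs of libraries.

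**Figure D3:**
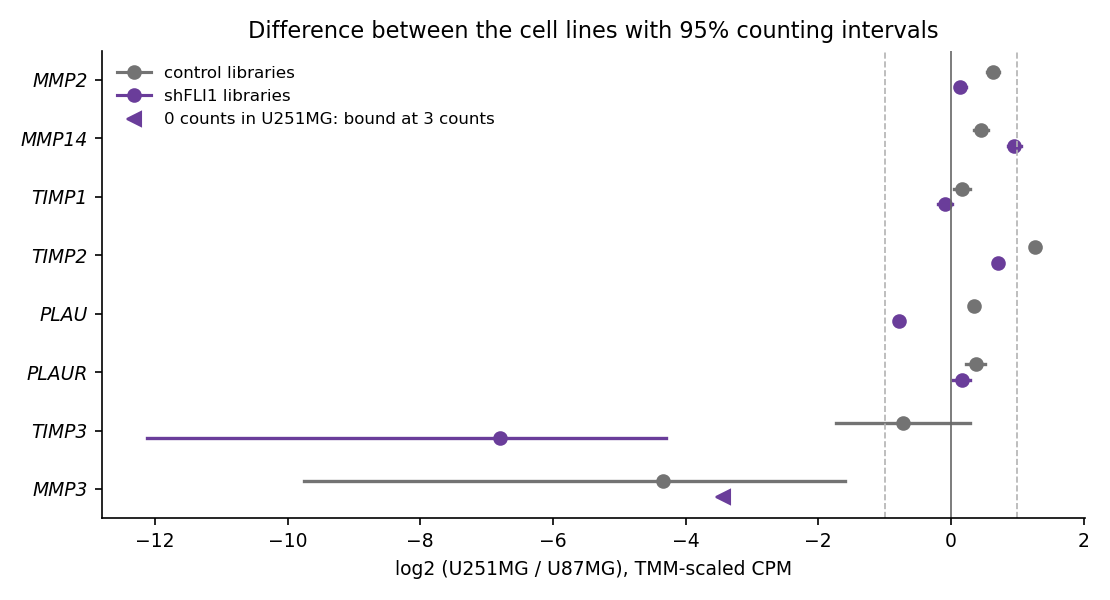
Log2 ratio of U251MG to U87MG TMM-scaled CPM for 8 members, in the control libraries (grey) and in the shFLI1 libraries (purple), with 95% Clopper-Pearson counting intervals and dashed lines at 2-fold. *TIMP2* (1.27 and 0.71) and *MMP14* (0.46 and 0.95) lie right of 0 in both pairs, *PLAU* lies on opposite sides (0.35 and -0.78), and *MMP3* lies far to the left in both, with an arrowhead at the bound set by 3 counts where U251MG had 0.

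Over the 4 libraries, with the control and the shFLI1 library of a line as its replicates, edgeR's quasi-likelihood test put 3 of 8 members past an adjusted p of 0.05 for the line, 37.5% against 18.6% of all genes tested. *TIMP2* was higher in U251MG (log2 difference 0.92, adjusted p = 0.0103 in edgeR), as was *MMP14* (0.63, adjusted p = 0.0272), and *MMP3* was lower (-5.39, adjusted p = 0.0084, a fitted value that depends on the prior count). *TIMP3* missed the threshold with a log2 difference of -2.87 and an adjusted p of 0.0798 in edgeR, and passed it in DESeq2 (0.0315), which gave *MMP3* no adjusted p. The other members had adjusted p-values from 0.215 (*MMP2*) to 0.892 (*TIMP1*) in edgeR. When the knockdown term was left out, 0 members passed in edgeR, beside 531 of 16649 genes. At an unadjusted p below 0.05 there were 2 of 8 members (25%), near the 22.5% of all genes.

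Ratios of counts within a library do not depend on its scaling. The pairs were chosen after the values were seen, so their ratios are descriptions. A ratio of counts also holds the lengths of the genes, so its change after knockdown is what can be read from it, and levels are compared below per length. *TIMP2* counts were 1.87 times those of *MMP14* in U87MG control and 5.61 times in U87MG shFLI1, and 3.3 and 4.74 times in U251MG. On the log2 scale this ratio moved by 1.58 (1.44 to 1.72) in U87MG and 0.52 (0.44 to 0.61) in U251MG. Of the 4 libraries, the U87MG control had the lowest and U87MG shFLI1 the highest ratio of this pair.

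The ratio of *TIMP2* to *MMP2* moved by nearly the same amount in both lines. It went from 1.2 to 2.61 in U87MG (1.13 on the log2 scale, 1.01 to 1.24) and from 1.86 to 3.88 in U251MG (1.06, 0.98 to 1.14). The counting intervals of these changes overlap. *TIMP1* to *MMP14* went from 0.734 to 1.3 in U87MG (0.83, 0.65 to 1.00) and from 0.598 to 0.633 in U251MG, where the interval included no change (0.08, -0.05 to 0.21). The ligand-to-receptor ratio *PLAU* to *PLAUR* was alike in the controls (6.83 in U87MG and 6.69 in U251MG), and it reached 13.7 in U87MG shFLI1 and 7.09 in U251MG shFLI1. Per length, by the FPKM of the leading RNAs, *TIMP1* was above *MMP14* in every library (4.65 and 7.97 times in U87MG control and shFLI1, 3.94 and 4.09 times in U251MG). In U251MG, where *PLAU* and *PLAUR* were both lower, their ratio moved by 0.08 on the log2 scale (-0.04 to 0.21), against 1.00 (0.84 to 1.16) in U87MG.

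**Figure D4:**
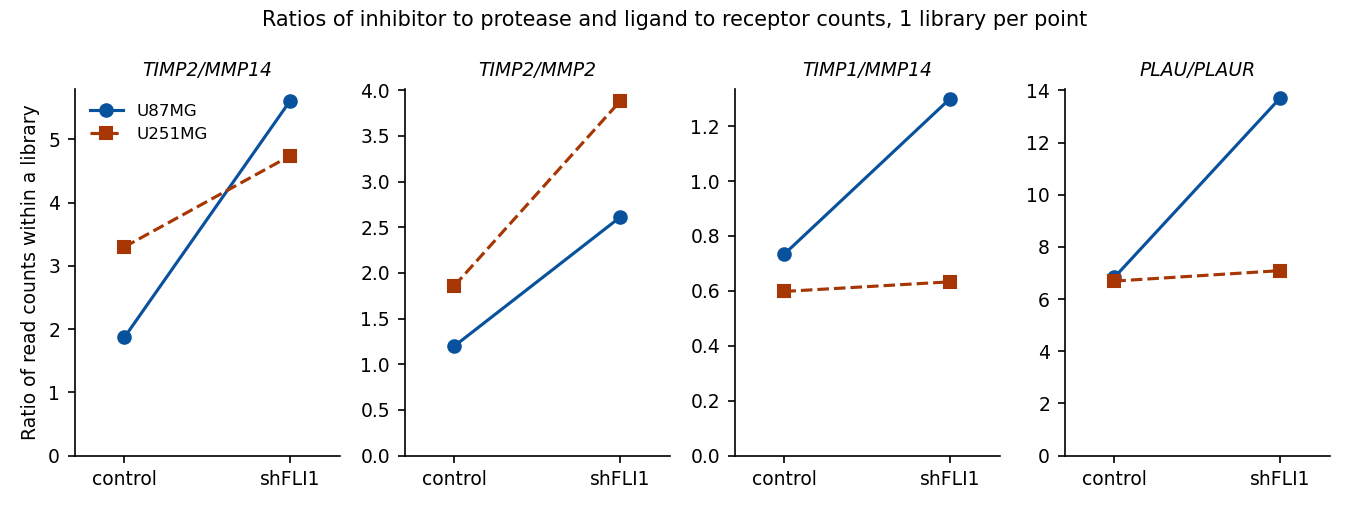
Ratio of read counts of gene pairs within each library (y axes from 0), control against shFLI1, U87MG as blue circles and U251MG as brown squares, 1 library per point. *TIMP2* to *MMP2* climbs side by side in both lines (1.2 to 2.61 and 1.86 to 3.88), whereas *TIMP1* to *MMP14* and *PLAU* to *PLAUR* climb in U87MG and stay nearly level in U251MG (6.69 to 7.09 for *PLAU* to *PLAUR*).

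Most members were counted on 1 RNA. The leading RNA held at least 93.2% of the counts of *MMP2*, *MMP14*, *TIMP2*, *TIMP3* and *PLAU* in each library, and between 88.8% and 93.4% of those of *TIMP1*. *PLAUR* was the exception, with 14 listed RNAs and 65.3% to 75.1% of its counts on NM_002659. The second *PLAUR* RNA, NM_001005376, held 15.7% and 15.5% of the counts in U87MG control and shFLI1 and 8.5% and 13.2% in U251MG. Its FPKM was 7.55 and 5.93 in U87MG and 5.6 and 5.7 in U251MG, while NM_002659 went from 32.19 to 22.54 in U87MG and from 44.74 to 27.4 in U251MG. Estimated counts can be split between such overlapping RNAs, so these shares are less certain than the gene totals.

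The other metalloproteinases included 4 called genes among the 6 tested in U87MG (66.7%, beside 11.4% of all genes) and 0 of 9 in U251MG (beside 8.17%). Their median log2 change was -0.25 in U87MG and 0.53 in U251MG, beside 0.06 and 0.04 over all genes. *MMP16* and *MMP15*, membrane-anchored relatives of *MMP14* and the most abundant of the list, were higher in U87MG shFLI1. *MMP16* was at 36.8 and 97.3 CPM in U87MG (log2 change 1.40, 1.25 to 1.56) and at 22.2 and 26.7 CPM in U251MG (0.27, 0.09 to 0.45). *MMP15* was at 6.81 and 16.1 CPM in U87MG (1.23, 0.89 to 1.62) and at 8.75 and 12.7 in U251MG (0.53, 0.26 to 0.81). In the shared fit *MMP16* had an adjusted p of 0.121 and *MMP15* of 0.0991 in edgeR, neither past the threshold. Both thus lay on the other side of no change from *MMP14*. The next most abundant, *MMP17* and *MMP24*, were named after their values were seen and were not called in either line. *MMP17* had log2 changes of -0.81 (-1.19 to -0.45) in U87MG and 0.03 in U251MG. Those of *MMP24* were 0.31 (-0.21 to 0.86) and 0.58. The 2 genes called lower in U87MG, named after their values were seen, were *MMP19* (15 and 5 counts) and *MMP28* (16 and 0 counts). The other gelatinase, *MMP9*, had 1 count in the 4 libraries together.

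In the plasminogen system 0 of 8 genes tested were called in U87MG, beside 11.4% of all genes, with a median log2 change of -0.11 beside 0.06 over all genes. The plasminogen-binding annexin *ANXA2*, the most abundant gene of the list, had log2 changes of -0.14 in U87MG and 0.16 in U251MG. *SERPINE2*, a secreted serpin that inhibits urokinase, was the gene of this list past the threshold in the shared fit (log2 change -0.75, adjusted p = 0.0259 in edgeR), and was named after its value was seen. It was 1 of 8 genes tested in that fit, 12.5% beside 3.06% of all genes.

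Of the other protease inhibitors, 2 of 8 tested fell in the shared fit (25%, beside 3.06% of all genes), and they were the 2 most abundant. The collagen chaperone *SERPINH1*, a serpin by family that does not act on proteases, fell by 0.73 (adjusted p = 0.0446 in edgeR), and the matrix proteoglycan *SPOCK1* by 0.87 (adjusted p = 0.0175). Within lines 0 of 8 were called in U87MG and 1 of 8 in U251MG (12.5%, beside 8.17% of all genes). The 1 called was the broad inhibitor *A2M*, named after its value was seen. *A2M* was at 33.4 CPM in U87MG control and 24.5 in U87MG shFLI1 (log2 change -0.45, -0.64 to -0.26). In U251MG it was at 31.4 and 82.4 CPM (1.39, 1.26 to 1.53), so the 2 lines moved in opposite directions. *RECK*, a membrane inhibitor of metalloproteinases that was also named after its values were seen, had log2 changes of 0.57 and 0.22. *TIMP4*, the remaining tissue inhibitor, had between 15 and 51 counts per library and log2 changes of -0.20 and 0.02.

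Cathepsins, lysosomal proteases that glioma cells also secrete, had 3 of 10 genes called in U87MG (30%, beside 11.4% of all genes) and 1 of 11 in U251MG (9.09%, beside 8.17%). Of the calls in U87MG 2 were lower and 1 was higher, and the 1 in U251MG was lower. The higher one was *CTSV* (6 and 47 counts, log2 change 1.83, 0.78 to 3.53), named after its value was seen. *CTSD*, the most abundant cathepsin, was lower in U87MG shFLI1 (log2 change -1.37) and had -0.79 in U251MG. It fell in the shared fit (-1.10, adjusted p = 0.0258 in edgeR). *CTSB*, the other gene taken for its level, had log2 changes of -0.53 and -0.21 (adjusted p = 0.33 in edgeR). *CTSL* was the second cathepsin to fall in the shared fit (-1.21, adjusted p = 0.00853 in edgeR), named after its value was seen. Thus 2 of 10 cathepsins tested passed in that fit, 20% beside 3.06% of all genes. In U251MG 10 of the 11 cathepsins had negative log2 changes, with a median of -0.31 beside 0.04 over all genes, whereas in U87MG 5 of 10 were negative and the median was 0.01.

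Of the ADAM and ADAMTS genes, 3 of 17 tested were called in U87MG (17.6%, beside 11.4% of all genes) and 1 of 19 in U251MG (5.26%, beside 8.17%). *ADAM19* and *ADAM9*, the most abundant, had log2 changes of -0.24 and -0.03 in U87MG and -0.47 and 0.57 in U251MG. Activators and docking proteins of metalloproteinases had 0 of 10 called in U87MG (beside 11.4% of all genes) and 0 of 11 in U251MG (beside 8.17%). *CD44*, which holds MMP14 at the cell front, had log2 changes of 0.13 and 0.29, and *BSG*, an inducer of metalloproteinases, had -0.14 and -0.27. The 1 gene of that list past the threshold in the shared fit was the proteoglycan *SDC1* (-0.74, adjusted p = 0.0469 in edgeR), named after its value was seen. It was 1 of 10 genes tested there, 10% beside 3.06% of all genes.

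Among matrix proteins that these enzymes cut or that bind them, 4 of 20 were called in U87MG (20%, beside 11.4% of all genes) and 2 of 20 in U251MG (10%, beside 8.17%). The calls in U87MG were 2 higher and 2 lower, and the 2 in U251MG were higher. *SPARC*, a collagen-binding matrix protein, had log2 changes of -0.00 and 0.16. *COL1A2*, a chain of type I collagen, was at 15245 and 9880 counts in U87MG (log2 change -1.58, lower) and 38116 and 50769 in U251MG (-0.33). *COL1A1*, named after its values were seen, went the other way in U87MG (1.22, 0.92 to 1.55) and had -0.06 in U251MG. No gene of any of the 7 lists was called in the same direction in both lines.

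**Figure D5:**
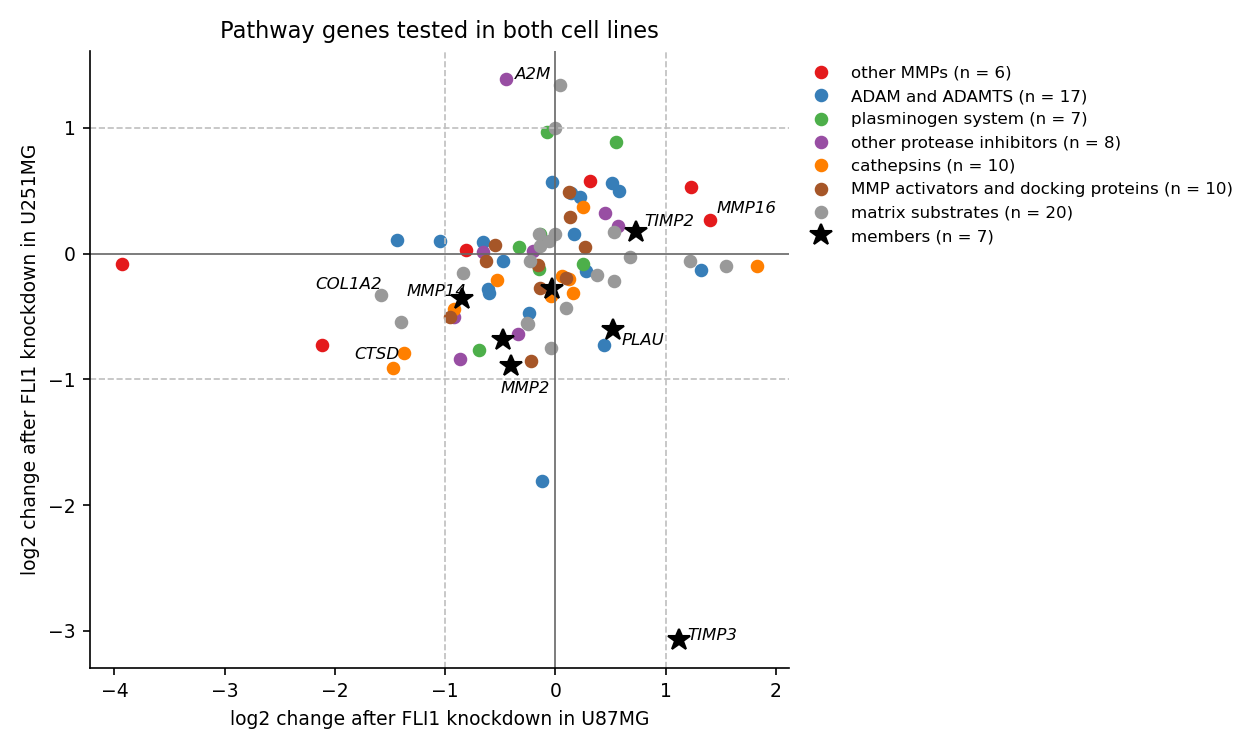
Log2 change after *FLI1* knockdown (prior count of 2) in U87MG (x axis) against U251MG (y axis) for pathway genes tested in both lines and reported here, coloured by list, with the 7 members tested in both as black stars and dashed lines at 2-fold. No gene lies beyond 2-fold in the upper right or the lower left corner, and *TIMP3* (1.12 and -3.07) lies alone beyond 2-fold in the lower right.

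For each member the genes with the most similar profile were sought among genes with at least 100 counts in a library, by the distance between centred log2 CPM over the 4 libraries. *CX3CL1* and *ZFP36L1* were nearest to *MMP2*, *ADGRG1* and *LINC01270* to *MMP14*, and *TMEM167B* and *BARD1* to *PLAUR*, at distances from 0.0268 to 0.102. *BCOR* and *RPP14* followed *TIMP1*, *NAT8L* and *KIAA0825* followed *TIMP2*, and *LINC02595* and *ELAVL2* followed *PLAU*, at distances from 0.023 to 0.131. *MMP3* (*TTN-AS1*, 0.219) and *TIMP3* (*TRHDE-AS1*, 1.24) had no close neighbour by comparison. With 4 libraries many genes share a profile, and the names are a description.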

How the data were processed

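RNA-seq was performed on 1 library each of control (pGreen) and shFLI1 cells of U87MG and U251MG, assigned by the sample labels. Per the study's methods, the authors selected mRNA with poly-T beads, aligned reads to GRCh38 (GRCh38.p13 in the submitters' processing notes) with HISAT2 and used StringTie for FPKM. The table deposited by the authors holds estimated counts (expected counts, not normalized) and FPKM for 216388 RNAs, of which 185042 are linear, and the tool behind the counts is not given in the sources used here. A further 10 value columns (TPM and averages) were not used, and the authors' columns are otherwise as deposited.

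Counts of linear RNAs were summed per Entrez identifier, rounded and scaled by TMM over the 4 libraries. Totals were 12229780, 21250153, 18108612 and 28891055. Log2 changes used a prior count of 2, and intervals were 95% Clopper-Pearson intervals of the read ratio. Reads copied by PCR are no independent molecules, and intervals and the floor of 3 counts therefore cover counting error alone. Differences of changes and changes of ratios are conditional estimates without a prior count, with exact conditional intervals. edgeR 4.0.16 fitted quasi-likelihood models over the 4 libraries with cell line and knockdown as terms, with Benjamini-Hochberg adjustment over all genes kept by filterByExpr. DESeq2 1.42.0 and limma 3.58.1 (log2 of FPKM + 1, at least 1 FPKM in 2 libraries) were alternatives, with R 4.3.3 and Python 3.11.15. On simulated counts, 100.0% of 200 genes changed 4-fold were recovered in each simulated comparison. These held 17028 genes in U87MG, 17902 in U251MG and 16891 in the edgeR fits. The changed genes were well counted in every library, so the recovery does not cover low-count members such as *TIMP3* or smaller changes. The simulated spread between libraries was small, and the knockdown changed a gene alike in both lines. Spread between cultures and changes in 1 line only are therefore not covered, and wrong calls among unchanged genes are not given here. The comparison of the control lines was not simulated.

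All 9 members are named. From each pathway list the 2 genes of highest mean CPM and any gene called in the same direction in both lines were named, and others are marked where they appear. Members and lists were chosen with earlier results of these data known. Promoters are from RefSeq (GRCh38.p14), which matched 5 members. A gene of the plasminogen list is not reported here. No start region of *MMP1*, *MMP2*, *MMP3* or *TIMP2* was analysed here.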

Additional observations from a re-analysis of the deposited data

Results flagged for a closer look

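Estimated without a prior count, the log2 change of *TIMP3* after *FLI1* knockdown was 6.02 lower in U251MG than in U87MG (U251MG minus U87MG -6.02, 95% counting interval -11.46 to -3.20). With a prior count of 2 the log2 changes were -3.07 in U251MG and 1.12 in U87MG, which lie closer together. *TIMP3* drew attention because its libraries moved in opposite directions in the 2 lines. The counts were 19 and 83 in U87MG and 18 and 1 in U251MG. The log2 change of *PLAU* differed between the lines by -1.13 (-1.20 to -1.06) for the same reason, with 4022 and 11239 counts in U87MG and 7970 and 8786 in U251MG, where the deeper shFLI1 library gives a lower CPM. With 1 library per arm neither difference was tested.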

How the results depend on the processing

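Within each line the 1 called member, *TIMP3*, was no longer called when 100 counts were required or when FPKM was used with a pseudocount of 1 or 0.1, which gave 0 in U87MG and 0 in U251MG, since *TIMP3* is below those minimums. A threshold of 1.5-fold gave 3 members in U87MG and 4 in U251MG. The share of all genes at that threshold was not taken, so no excess can be read from these counts. Between the controls 2 called members became 1 with 100 counts and 1 with either FPKM scale. For the shared knockdown effect 0 members became 3 with genes of at least 1 count kept (*MMP2*, *MMP14* and *PLAUR*, beside 1303 of 43576 genes). There was 1 with at least 100 counts in every library (*MMP2*, beside 504 of 9772 genes) and 1 in DESeq2 (*MMP2*, beside 405 of 16649 genes). For the line difference 3 members became 0 without the knockdown term (beside 531 of 16649 genes) and 1 in limma on FPKM (*MMP14*, beside 627 of 13998 genes). The cause was not tested beyond these minimums. Of 161 single values under alternatives, 36 left their counting interval, 8 took the other sign and 0 called values reversed. Over all genes, the 509 past the threshold for the shared effect in edgeR became 1303 with at least 1 count, 0 with the cell line left out of the model (725 at unadjusted p below 0.05) and 0 in limma (1962), and the 3100 for the line difference became 1813 in DESeq2, 627 in limma and 531 without the knockdown term. The share of higher genes moved from 1726 of 3100 to 1976 of 2902 with total counts, a scaling that also moved the median log2 change of all genes in U87MG from 0.06 to 0.22. Under it *TIMP1* and *MMP3* in U87MG took the other sign. Leaving out a replicate does not apply to 1 library per arm. Depth limits *MMP1*, *MMP3* and *TIMP3*. The labels carry no replicate numbers, and the cell line pairs control and shFLI1 libraries in the edgeR fit.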
